A study of Nothobranchius furzeri with 16 samples.

Results

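KLF9 (Nfu_g_1_008967) and KLF13 (Nfu_g_1_008455) are 2 of the 26739 genes counted in brains of an annual killifish, Nothobranchius furzeri, and both encode transcription factors of the Krueppel-like family. They were selected on their own measured transcript levels over the 4 groups of fish, as known from earlier results of these same libraries. Their own differences between groups are therefore given as a description, with no test. Both genes passed the filter on low counts in all 4 comparisons described here.

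Whole brain total RNA was sequenced in 16 libraries, 4 per group. GRZ fish were sampled at 5 weeks post hatching (wph), and MZM-0410 fish at 5, 12 and 39 wph, ages that the study calls young, adult and old. GRZ is an inbred and very short-lived strain, and MZM-0410 is a longer-lived strain derived from the wild. The labels describe fasting before death, 1 common hour of sampling and no treatment, and each library is taken to be 1 fish, so that p-values measure the spread between these fish.

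KLF9 and KLF13 are closely related zinc finger proteins that bind GC-rich and GT-rich elements in promoters and recruit the SIN3 corepressor to many of them. In frogs and rodents, KLF9 is an immediate target of the thyroid hormone and glucocorticoid receptors, rises in the brain as these hormones rise, and takes part in the maturation of neurons. In rodent neurons KLF9 and KLF13 also hold down genes of cyclic AMP and of JAK-STAT signalling, and both limit the growth of axons.

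GRZ libraries had total counts of 8.80 to 10.6 M (M, mega). In MZM-0410 the totals ranged between 3.93 and 8.24 M in young fish, between 5.48 and 9.45 M in adult fish, and between 8.27 and 8.74 M in old fish. The 5 wph MZM-0410 group was thus the shallowest, although its replicate 12, at 8.24 M, was as deep as the older fish. That same group is the point of reference in 3 of the 4 comparisons, which are for this reason not independent of each other. Levels are given in CPM, the count of a gene scaled to a common library total, which depend on transcript length, so levels are compared between fish and not between the 2 genes.

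KLF9 transcripts were scarce in young MZM-0410 brains and several times more abundant in every other group. At 5 wph the MZM-0410 libraries held 32, 42, 32 and 51 KLF9 reads in replicates 11, 12, 14 and 15, which are 8.14, 5.03, 6.83 and 10.9 CPM. At 12 wph replicates 1, 3, 4 and 5 stood at 55.4, 65.6, 43.8 and 57.0 CPM (303, 620, 319 and 411 reads). At 39 wph replicates 6, 8, 9 and 10 stood at 48.3, 48.4, 67.8 and 105.0 CPM (401, 404, 584 and 909 reads). The lowest adult or old fish was thus well above the highest young fish, and the deepest young library, replicate 12, had the lowest level of all.

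In GRZ at 5 wph, KLF9 stood at 44.0, 47.8, 47.4 and 67.8 CPM in replicates 1 to 4 (387, 478, 497 and 600 reads). No GRZ library came near the MZM-0410 libraries of the same age, and 3 of the 4 lay within 4 CPM of each other, with replicate 4 above them. The exact Poisson 95% intervals of the 4 young MZM-0410 libraries ran from 3.62 to 14.4 CPM over all of them. Such intervals cover counting error only, and they are no test of the difference, because KLF9 was selected on these levels.

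KLF13 was also lowest in young MZM-0410 brains, but it peaked at 12 wph and was intermediate in old fish. At 5 wph the MZM-0410 libraries stood at 77.9, 103.3, 79.2 and 92.4 CPM in replicates 11, 12, 14 and 15 (306, 863, 371 and 431 reads). At 12 wph the values were 239.3, 253.3, 229.2 and 264.9 CPM in replicates 1, 3, 4 and 5 (1310, 2395, 1668 and 1911 reads). At 39 wph they were 105.7, 147.6, 185.0 and 222.1 CPM in replicates 6, 8, 9 and 10 (877, 1232, 1595 and 1924 reads). Adult fish formed a tight set at the top, and old fish were spread over most of the distance between young and adult fish.

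In GRZ at 5 wph, KLF13 stood at 122.3, 122.7, 168.4 and 194.2 CPM in replicates 1 to 4 (1075, 1226, 1766 and 1720 reads). These fish all lay above the MZM-0410 fish of the same age and all below the 12 wph fish. Replicates 1 and 2 were nearly equal, with replicates 3 and 4 higher.

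**Figure D1:**
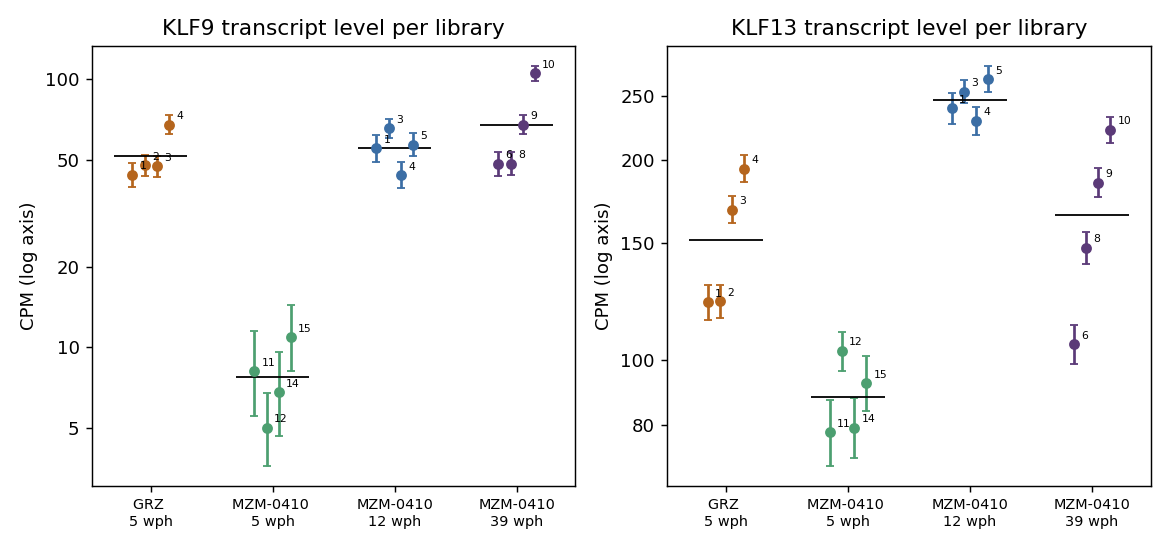
KLF9 (left) and KLF13 (right) in each of the 16 libraries, in CPM on a log axis, with groups on the x axis, replicate numbers beside the points, exact Poisson 95% intervals as bars and group means as lines. KLF9 lies at or below 10.9 CPM in young MZM-0410 fish and at or above 43.8 CPM elsewhere, whereas KLF13 is highest at 12 wph and widely spread at 39 wph.

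As group means, KLF9 was 51.8 ± 10.8 CPM in GRZ at 5 wph, and 7.73 ± 2.49 CPM at 5 wph, 55.4 ± 8.94 CPM at 12 wph and 67.4 ± 26.7 CPM at 39 wph in MZM-0410 (SD, n = 4 each). KLF13 was 151.9 ± 35.5 CPM in GRZ, and 88.2 ± 12.0, 246.7 ± 15.7 and 165.1 ± 49.9 CPM in MZM-0410 at 5, 12 and 39 wph (SD, n = 4 each). For KLF9 the order of the groups was 5 wph MZM-0410, then GRZ, 12 wph and 39 wph. The last 3 overlapped with one another, and only the first stood apart. For KLF13 the order was 5 wph MZM-0410, then GRZ, 39 wph and 12 wph. GRZ and 39 wph overlapped, and the first and last group stood apart from all others.

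In the step from young to adult, KLF9 was 7.49-fold higher at 12 wph than at 5 wph (log2 fold change 2.91 ± 0.20, SE) and KLF13 was 2.80-fold higher (1.48 ± 0.09). All 4 adult fish exceeded all 4 young fish for both genes. Of the 17366 genes tested, 6.6% changed in either direction, and 7.38% had all adult fish above all young fish. In size, 99.97% of these genes had a log2 fold change at or below that of KLF9, and 99.64% at or below that of KLF13. Whole brain RNA cannot tell more transcript per cell from a larger share of cells that carry it.

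In the step from adult to old, the 2 genes parted. KLF13 was lower at 39 wph than at 12 wph (fold 0.67, log2 fold change -0.58 ± 0.18), and all 4 old fish lay below all 4 adult fish. Among the 17980 genes tested 9.64% changed, and 9.51% had all old fish below all adult fish. The separation was narrow at its edge: old replicate 10, at 222.1 CPM (95% interval 212.3 to 232.3), and adult replicate 4, at 229.2 CPM (218.3 to 240.4), cannot be told apart by counting error. KLF9 was 1.21-fold higher at 39 wph than at 12 wph (0.28 ± 0.23) and the groups overlapped, with 2 old fish above all adult fish. Without old replicate 10 the log2 fold change of KLF9 was -0.019, so the difference in the mean rests on that fish.

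Old fish still had more of both transcripts than young fish. KLF9 was 9.07-fold higher at 39 wph than at 5 wph (log2 fold change 3.18 ± 0.30), and KLF13 was 1.87-fold higher (0.90 ± 0.19), in a comparison in which 24.9% of 17938 genes changed and 13% had all old fish above all young fish. All 4 old fish exceeded all 4 young fish for both genes. For KLF13 the lowest old fish (replicate 6, 105.7 CPM, 95% interval 98.8 to 112.9) and the highest young fish (replicate 12, 103.3 CPM, 96.5 to 110.4) were not distinguishable at this depth.

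Between the strains at 5 wph, KLF9 was 6.90-fold higher in GRZ than in MZM-0410 (log2 fold change 2.79 ± 0.21) and KLF13 was 1.70-fold higher (0.77 ± 0.15). All 4 GRZ fish exceeded all 4 MZM-0410 fish for both genes, against a background of 10.1% of 17994 genes changed and 8.87% with all GRZ fish above all MZM-0410 fish. Of these genes, 99.81% had a log2 fold change at or below that of KLF9 and 96.16% at or below that of KLF13. When GRZ fish are set beside adult or old MZM-0410 fish, strain and age both differ, and no share of all genes was counted. Beside adult MZM-0410 fish, GRZ fish had 0.934 times the mean KLF9 level with overlapping libraries, but 0.616 times the mean KLF13 level with all 4 GRZ fish below. Beside old fish both genes overlapped, at 0.768 times the mean for KLF9 and 0.92 times for KLF13. For KLF9, 3 of the 4 GRZ fish lay below all old fish, and for KLF13 0 did. The KLF9 edge was narrow, since GRZ replicate 2 (47.83 CPM) and old replicate 6 (48.34 CPM) cannot be told apart by counting error.

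The number of KLF13 reads per KLF9 read is a ratio within each library, which no scaling between libraries can alter. It was 2.78, 2.57, 3.55 and 2.87 in GRZ replicates 1 to 4. In MZM-0410 it was 9.56, 20.6, 11.6 and 8.45 at 5 wph, 4.32, 3.86, 5.23 and 4.65 at 12 wph, and 2.19, 3.05, 2.73 and 2.12 at 39 wph, in the order of replicates given above. Its mean was 2.94 ± 0.43 in GRZ, and 12.5 ± 5.50, 4.52 ± 0.57 and 2.52 ± 0.45 in MZM-0410 at the 3 ages (SD, n = 4 each). Young MZM-0410 fish did not overlap with any other group, and adult fish overlapped neither with GRZ nor with old fish. The high value of replicate 12 combines the lowest KLF9 level and the highest KLF13 level of the young MZM-0410 group.

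**Figure D2:**
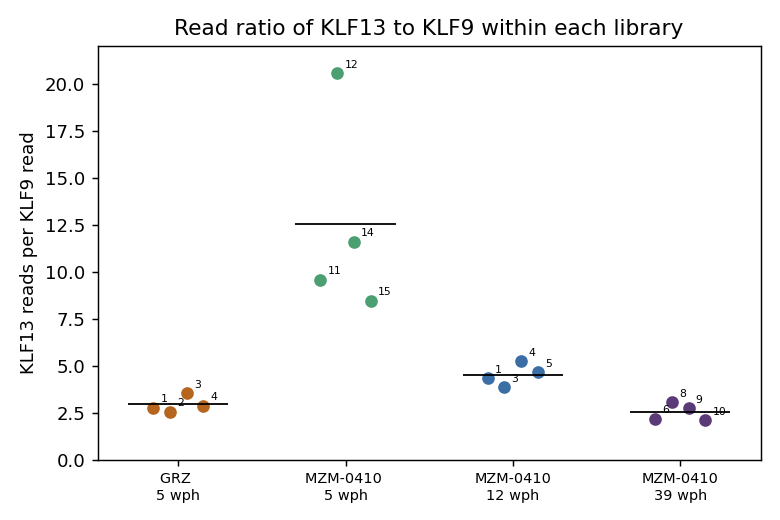
KLF13 reads per KLF9 read (y axis, linear from 0) in each library, with groups on the x axis, replicate numbers beside the points and group means as lines. Young MZM-0410 fish lie between 8.45 and 20.6, above every other library, and adult fish (3.86 to 5.23) lie above GRZ (2.57 to 3.55) and old fish (2.12 to 3.05).

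The spread among the 4 fish of each group is given as a description, with no test of a difference with age. For KLF9 the coefficient of variation was 20.9% in GRZ, and 32.2%, 16.1% and 39.6% in MZM-0410 at 5, 12 and 39 wph. For KLF13 it was 23.4% in GRZ, and 13.7%, 6.35% and 30.2% in MZM-0410 at these ages. In old fish the highest library had 2.17 times the KLF9 level and 2.1 times the KLF13 level of the lowest. Both genes ranked these fish in the same order, replicate 6 lowest, then 8, 9 and 10. For KLF9, however, replicates 6 and 8 (401 and 404 reads, 48.34 and 48.4 CPM) cannot be told apart by counting error. In GRZ both genes were lowest in replicate 1 and highest in replicate 4, and in adult fish both were lowest in replicate 4. In young MZM-0410 fish the orders differed, since replicate 12 was lowest for KLF9 and highest for KLF13. Old replicates 6, 8, 9 and 10 had totals of 8.3, 8.27, 8.72 and 8.74 M. The part of depth in the order of the old fish was not tested.

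Of the other genes of the KLF and SP family, 5 carried a name in the tables used here, while a RefSeq annotation of the species lists 28 family symbols. Names came mostly from tables of changed genes, so these 5 do not stand for the family. The 2 copies of KLF11, a repressor that also works through SIN3, moved in opposite directions. The copy Nfu_g_1_018675 had 16.6, 15.3, 15.8 and 10.9 CPM in GRZ, against 43.0, 41.6, 40.5 and 32.4 CPM in MZM-0410 at 5 wph. It had 19.4, 23.1, 17.0 and 20.0 CPM at 12 wph, and 23.1, 23.6, 24.5 and 11.4 CPM at 39 wph. It was thus highest in the young MZM-0410 fish, in which KLF9 was lowest, and none of the other libraries reached that range.

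KLF11 copy Nfu_g_1_018675 fell by 0.98 ± 0.12 on the log2 scale at 12 wph against 5 wph (adjusted p = 0.000514, edgeR quasi-likelihood test with Benjamini-Hochberg adjustment) and was lower in GRZ than in young MZM-0410 fish (log2 fold change -1.43 ± 0.14, adjusted p = 6.02e-05, edgeR). The other copy, Nfu_g_1_015328, had 66.1, 49.1, 56.8 and 37.6 CPM in GRZ, against 31.8, 21.2, 28.0 and 29.8 CPM in MZM-0410 at 5 wph. It had 47.3, 59.9, 46.2 and 50.5 CPM at 12 wph, and 44.1, 51.9, 67.4 and 60.3 CPM at 39 wph. It rose at 12 wph against 5 wph (0.91 ± 0.13, adjusted p = 0.00162, edgeR) and was higher in GRZ (0.94 ± 0.17, adjusted p = 0.00516, edgeR). In old against young fish the first copy was lower (-0.93 ± 0.19, adjusted p = 0.00457) and the second higher (1.04 ± 0.15, adjusted p = 0.000542, both edgeR). Reads that fit both copies were not traced, which leaves the level of each copy uncertain. Of all genes tested in that comparison 12.3% rose and 12.6% fell.

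KLF12, a repressor of the same family, rose slightly at 39 wph against 5 wph (log2 fold change 0.52 ± 0.08, adjusted p = 0.000597, edgeR) and at 12 wph against 5 wph (0.28 ± 0.07, adjusted p = 0.0390, edgeR). The second call was lost when all 16 libraries were fitted together (adjusted p = 0.069) and when any 1 of adult replicates 1, 3 and 4 or young replicates 12, 14 and 15 was left out (adjusted p = 0.0592 to 0.116). KLF6, an immediate early member of the family, had a log2 fold change of 0.22 ± 0.06 at 12 wph against 5 wph, which did not pass in edgeR (adjusted p = 0.0528) but passed in DESeq2 (adjusted p = 0.0477), and passed in no other comparison in edgeR. SP6 passed in none. In old against adult fish none of these other family genes passed in edgeR, and 1, KLF12, had an unadjusted p under 0.05 (log2 fold change 0.24 ± 0.07, adjusted p = 0.0531). DESeq2 called 1 of them, KLF12 (adjusted p = 0.0202).

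**Figure D3:**
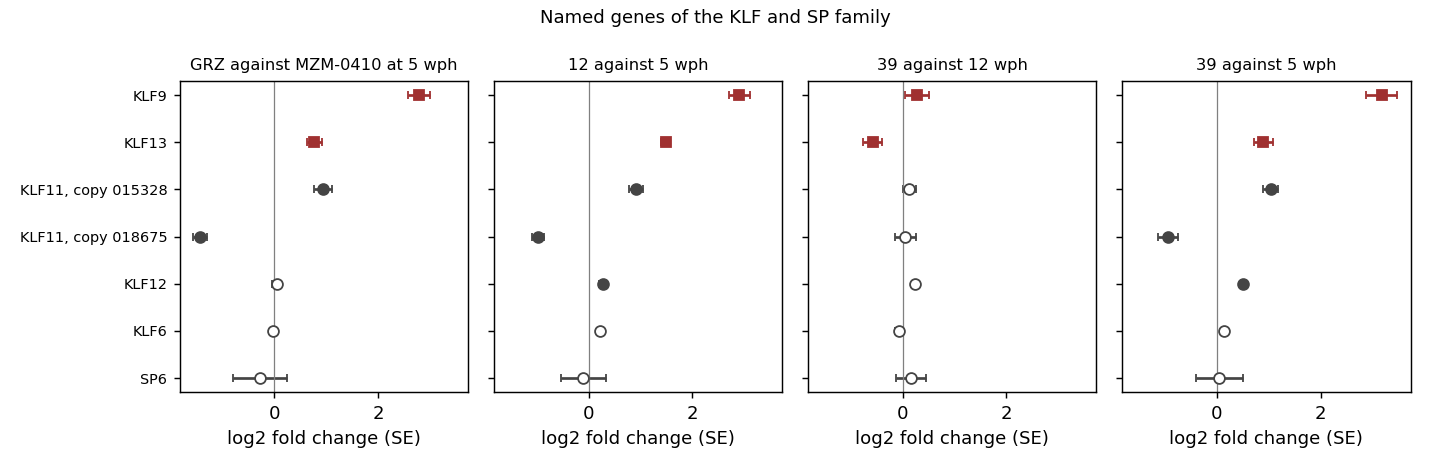
Log2 fold changes (x axis, bars are SE) of KLF9 and KLF13 (red squares, described with no test) and of the 5 other named KLF and SP genes (circles, filled where the edgeR adjusted p was under 0.05) in the 4 comparisons. KLF9 lies near 3 in each comparison with young MZM-0410 fish, and the 2 copies of KLF11 lie on opposite sides of 0 in these comparisons.

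The named genes whose profile over the 16 libraries was most like that of KLF9 were FOSB, MCL1, FKBP5, ADGRB1, CSRNP1, GADD45B (Nfu_g_1_014962), IRS2 (Nfu_g_1_005777) and TIPARP, with Pearson r of log2 CPM of 0.965 to 0.983 over 16 libraries. These 8 also ranked first among all 18623 genes compared, named or not. The correlation is a description, since it mixes differences between the groups with those between fish of a group. FOSB and CSRNP1 are immediate early genes, FKBP5 is a cochaperone of the glucocorticoid receptor and a classic target of it, MCL1 protects cells from apoptosis, and IRS2 carries insulin signals. At the other end stood CPT1A, which brings fatty acids into mitochondria, with r = -0.927, and LBR, a receptor of the inner nuclear membrane, with r = -0.925. CACNG1 (r = -0.917) and KNL1 (r = -0.906) came next.

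FKBP5, the third of these, had 415.3, 443.8, 507.5 and 445.2 CPM in GRZ, against 61.8, 56.0, 49.3 and 96.7 CPM in MZM-0410 at 5 wph. It had 644.9, 712.8, 511.9 and 674.7 CPM at 12 wph and 377.5, 394.3, 593.5 and 710.7 CPM at 39 wph. Like KLF9, it separated young MZM-0410 fish from all others, and had its lowest GRZ value in replicate 1 and its lowest adult value in replicate 4. It ranked the old fish 6, 8, 9 and 10, an order in which replicates 6 and 8 were level for KLF9. Unlike KLF9, it was highest in GRZ replicate 3 and not 4, and lowest in young MZM-0410 replicate 14 and not 12. Across the 8 genes the log2 fold changes ran from 0.78 to 3.28 at 12 wph against 5 wph and from 0.62 to 2.78 in GRZ against MZM-0410 at 5 wph, but only from -0.29 to 0.27 in old against adult fish.

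KLF13 had another set: RAB11FIP5, HSD11B2, MON1B, CDKN1B, ZBTB16 (Nfu_g_1_000574), TP53INP2, MPP1 and BAIAP2, with r of 0.933 to 0.956 over the 16 libraries. Least like KLF13 were ZMYM3 (r = -0.879), CHKA (r = -0.871), UTY (r = -0.843) and ZFP36L1 (r = -0.839). RAB11FIP5 and MON1B act in the traffic of endosomes, HSD11B2 inactivates cortisol, CDKN1B is an inhibitor of the cell cycle, and ZBTB16 is a glucocorticoid-responsive transcription factor. None of the 8 most like KLF13 was among those of KLF9, and r between KLF9 and KLF13 themselves was 0.796, which placed KLF13 at rank 249 of all genes for KLF9 and KLF9 at rank 147 for KLF13. HSD11B2 had 17.3, 14.8, 17.5 and 19.3 CPM in GRZ, and 10.4, 10.5, 7.25 and 9.65 CPM at 5 wph, 32.5, 35.6, 29.1 and 38.5 CPM at 12 wph and 13.9, 17.4, 28.1 and 41.9 CPM at 39 wph in MZM-0410. It shared with KLF13 a GRZ group between the young and the adult fish, and a wide old group. All 8 genes most like KLF13 were lower in old than in adult fish by the fitted estimate, with log2 fold changes of -0.61 to -0.25. Since they were chosen for following KLF13 over these same libraries, this shared direction is largely set by that choice.

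The 8 genes most like each were chosen for following KLF9 or KLF13 over the same libraries, old fish included. Like differences between the groups and a like order of the old fish are thus largely set by that choice. Old replicate 10 was the highest of the 4 old fish for 8 of the 8 genes most like KLF9 and for 8 of the 8 most like KLF13. Old replicate 6 was the lowest for 4 and 8 of them. The highest old fish had 1.17 to 2.1 times the level of the lowest in the KLF9 set and 1.30 to 3.02 times in the KLF13 set. With a prior count of 0.5 in the log2 CPM the same 8 genes were found for each, and with the 12 MZM-0410 libraries alone 6 of 8 were shared for each.

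**Figure D4:**
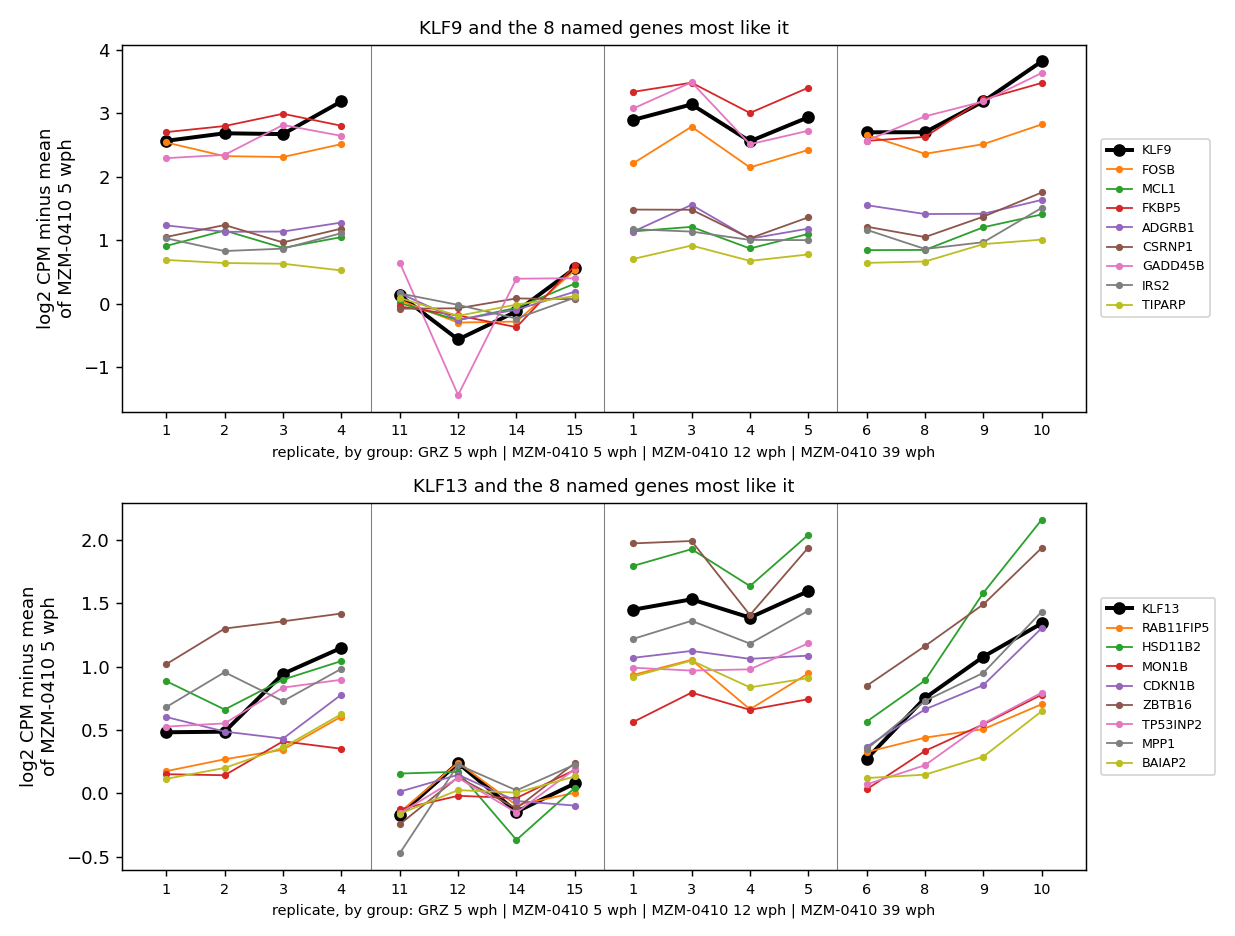
Log2 CPM minus the mean of the young MZM-0410 libraries (y axis) for KLF9 (top, black) and KLF13 (bottom, black) and the 8 named genes most like each, with the 16 libraries on the x axis by group and replicate number. Lines join libraries of 1 group for legibility only. The KLF9 set is low only in young MZM-0410 fish, and the KLF13 set is high in adult fish and widely spread in old fish.

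The hormones that induce KLF9 in other species lead to 2 lists of genes. Of the corticosteroid response list, without KLF9 and KLF13, 41 named genes were tested. At 12 wph against 5 wph, 29 rose and 3 fell (1 without 5 wph replicate 12), with a median log2 fold change of 0.74, while 19.2% of all named genes changed, 4.46% of all genes tested rose and 2.14% fell, and the median of all genes was near 0. FKBP5 rose most (log2 fold change 3.28 ± 0.18, adjusted p = 6.81e-06, edgeR), and CDKN1A, an inhibitor of the cell cycle, had the smallest p (1.93 ± 0.09, adjusted p = 1.67e-06, edgeR). HSD11B2 rose as well (1.84 ± 0.14, adjusted p = 2.47e-05, edgeR). Between the strains 21 of 41 were higher in GRZ and 3 lower, with a median of 0.46, where 14.8% of named genes changed, 5.44% of all genes tested were higher and 4.69% lower. The 3 lower calls fell to 0 without GRZ replicate 1 or 2 or MZM-0410 replicate 15, to 1 without GRZ replicate 3 or MZM-0410 replicate 11 or 12, and were 5 without GRZ replicate 4. In old against adult fish only 5 rose and 1 fell, with a median of -0.002, where 3.89% of all genes tested rose and 5.75% fell. The 1 that fell became 4 without 39 wph replicate 10 and with DESeq2, and 3 in the fit of all 16 libraries. That list was written with earlier results known, 3 of the genes most like KLF9 (FKBP5, GADD45B and IRS2) and 2 of those most like KLF13 (HSD11B2 and ZBTB16) belong to it, and it is no independent evidence of a direction.

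The genes of the corticosteroid receptors themselves did not pass at 12 wph against 5 wph in edgeR, and were higher at 39 wph than at 5 wph. NR3C1, the glucocorticoid receptor, averaged 49.8 ± 2.41 CPM in GRZ, and 51.9 ± 2.98, 56.0 ± 1.21 and 72.1 ± 3.25 CPM in MZM-0410 at 5, 12 and 39 wph (SD, n = 4 each). It did not pass the test at 12 wph against 5 wph (log2 fold change 0.11 ± 0.07, adjusted p = 0.366, edgeR) or between the strains (-0.07 ± 0.07, adjusted p = 0.599, edgeR), and rose at 39 wph against 12 wph (0.36 ± 0.06, adjusted p = 0.00873, edgeR). Both copies of NR3C2, the mineralocorticoid receptor, rose in old against adult fish too (0.49 ± 0.07 for Nfu_g_1_014241, adjusted p = 0.00588, and 0.59 ± 0.08 for Nfu_g_1_007124, adjusted p = 0.00481, edgeR). At 39 wph against 5 wph NR3C1 (0.47 ± 0.07, adjusted p = 0.000564) and NR3C2 (0.635 ± 0.08 for Nfu_g_1_014241, adjusted p = 0.000301, and 0.46 ± 0.07 for Nfu_g_1_007124, adjusted p = 0.00086, all edgeR) were higher, where 42.3% of named genes changed. Between the strains Nfu_g_1_007124 was lower in GRZ (-0.45 ± 0.12, adjusted p = 0.0304), and Nfu_g_1_014241 did not pass (-0.21 ± 0.13, adjusted p = 0.344, both edgeR). The libraries of Nfu_g_1_007124 overlapped, and it was among the lower calls of the corticosteroid list that were lost when certain single fish were left out.

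Of 10 named genes of the thyroid hormone pathway tested, 1 rose and 0 fell at 12 wph against 5 wph, where 19.2% of named genes changed, with a median log2 fold change of 0.06, and the riser was SLCO1C1 copy Nfu_g_1_008459, a carrier that brings thyroid hormone into the brain (0.54 ± 0.14, adjusted p = 0.0384, edgeR). In GRZ against MZM-0410 at 5 wph 1 was lower, the other SLCO1C1 copy Nfu_g_1_000344 (-0.57 ± 0.15, adjusted p = 0.0297, edgeR), where 14.8% of named genes changed. The riser was lost when any 1 of adult replicates 1, 4 and 5 or young replicates 11, 14 and 15 was left out, and the lower call was lost without GRZ replicate 1 or MZM-0410 replicate 12 or 14. At 39 wph against 12 wph, 1 rose, the coactivator NCOA1 (0.34 ± 0.07, adjusted p = 0.0129, edgeR), where 17.5% of named genes changed. At 39 wph against 5 wph 3 rose, among them NCOA1 and RXRG, a partner of the thyroid hormone receptors, where 42.3% of named genes changed. The receptors themselves had no name in the tables used here and are not described.

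Genes of the circadian clock were followed because KLF9 oscillates with the clock in several mammalian tissues, and because all fish were killed at 1 time of day. Of 23 tested, 13 rose and 5 fell at 12 wph against 5 wph, and of 24 tested, 6 were higher and 2 lower in GRZ than in MZM-0410, where 19.2% and 14.8% of all named genes changed. NR1D2 copy Nfu_g_1_020882, a repressor within the clock, was higher in both (1.44 ± 0.17, adjusted p = 0.000424, and 1.96 ± 0.17, adjusted p = 2.79e-05, edgeR), and PER3 was lower in both (-0.75 ± 0.08, adjusted p = 0.000295, and -0.70 ± 0.09, adjusted p = 0.000587, edgeR). The copies of NR1D2 did not move as 1. Copy Nfu_g_1_010960 was higher in both (0.488, adjusted p = 0.0128, and 0.795, adjusted p = 0.00042, edgeR). Copy Nfu_g_1_013151 fell at 12 wph against 5 wph (-0.553, adjusted p = 0.00149, edgeR) and did not pass between the strains (-0.115). Copy Nfu_g_1_010257 passed in neither (0.252 and -0.433). The 13 clock genes that rose became 7 without MZM-0410 5 wph replicate 11 or 14, and the 2 lower calls between the strains became 5 without GRZ replicate 4. In old against adult fish 4 of 24 rose and 2 fell, where 17.5% of named genes changed.

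KLF9 and KLF13 act on promoters through partners such as SIN3. Of 9 named genes of the SIN3 corepressor and of acetyltransferases, 1 fell at 12 wph against 5 wph, where 19.2% of named genes changed. It was the SIN3 subunit SAP130 (-0.33 ± 0.08, adjusted p = 0.0223, edgeR), and the call was lost without adult replicate 4 or young replicate 11 or 14. Between the strains 0 of 9 passed in edgeR, 0 had an unadjusted p under 0.05 and 0 passed in DESeq2, where 14.8% of named genes changed. HDAC1 came nearest (0.10 ± 0.08, adjusted p = 0.427, edgeR). HDAC1, the histone deacetylase of the complex, fell at 39 wph against 12 wph (-0.35 ± 0.06, adjusted p = 0.0102, edgeR), and KAT2B, an acetyltransferase, rose (0.42 ± 0.08, adjusted p = 0.0123, edgeR).

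The signalling pathways that KLF9 and KLF13 repress in rodent neurons were followed as well. Of 35 named genes of cyclic AMP and protein kinase A signalling, 6 rose and 1 fell at 12 wph against 5 wph, with a median log2 fold change of 0.12, where 19.2% of named genes changed. CREM, a cyclic AMP-responsive transcription factor, rose (1.44 ± 0.21, adjusted p = 0.00189, edgeR), as did the phosphodiesterase PDE7B (0.79 ± 0.13, adjusted p = 0.00323, edgeR), and the kinase PRKX fell (-0.57 ± 0.10, adjusted p = 0.00656, edgeR). Leaving out 1 fish lowered the 6 to 2 (adult replicate 3 or 5, young replicate 14) or 3 (young replicate 11 or 12). CREM was also higher in GRZ (1.18 ± 0.25, adjusted p = 0.0112, edgeR), where 1 of the 35 was higher and 1 lower, and 14.8% of named genes changed. Neither copy of CREB1 passed in any comparison. At 39 wph against 12 wph 7 rose and 0 fell, where 17.5% of named genes changed. Leaving out old replicate 6 lowered the 7 to 1, old replicate 9 or 10 to 3, and adult replicate 5 to 4. At 39 wph against 5 wph 14 rose and 2 fell, where 42.3% of named genes changed. Of 16 JAK and STAT genes, 5 rose and 1 fell at 12 wph against 5 wph, where 19.2% of named genes changed. STAT3 came first (0.49 ± 0.07, adjusted p = 0.00232, edgeR). Leaving out young replicate 11 or 12 lowered the 5 to 2. Leaving out adult replicate 3 or 5 or young replicate 14 or 15, or fitting all 16 libraries at once, lowered it to 3. Between the strains 0 of 16 passed in edgeR or DESeq2 and 5 had an unadjusted p under 0.05, the smallest adjusted p being 0.112 for STAT6 in edgeR. There, 14.8% of named genes changed. In old against adult fish 0 of 16 passed in edgeR and 3 had an unadjusted p under 0.05, where 17.5% of named genes changed. At 39 wph against 5 wph 8 of the 16 rose and 1 fell, where 42.3% of named genes changed.

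**Figure D5:**
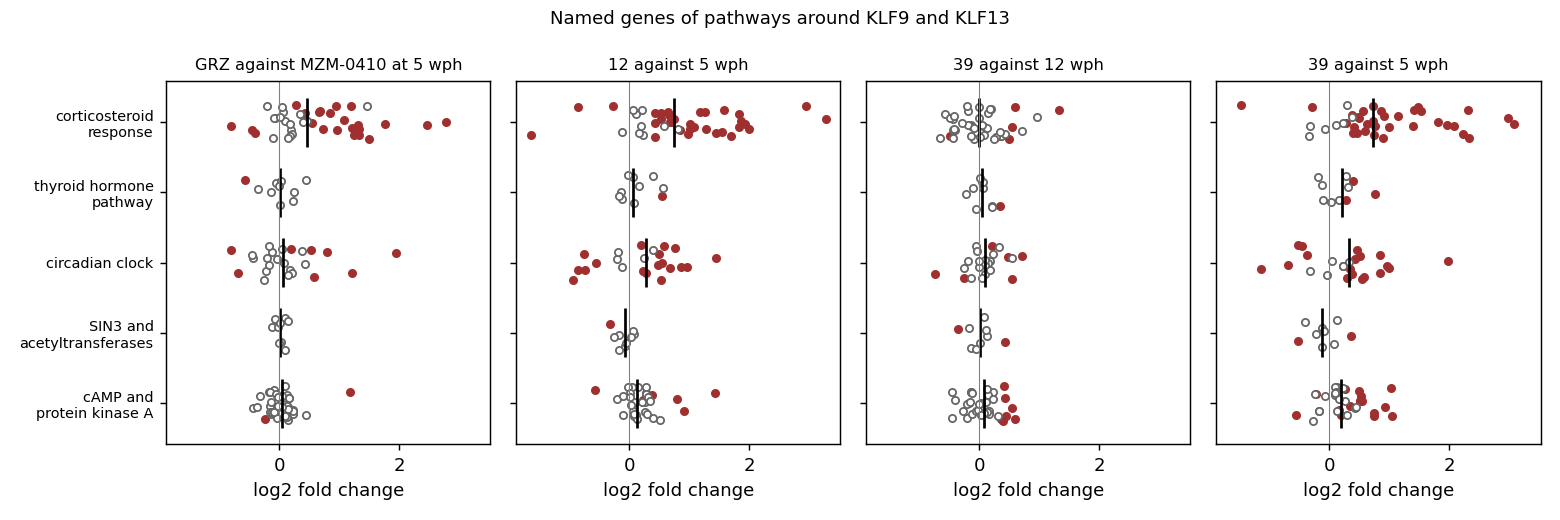
Log2 fold changes (x axis) of named genes in 5 lists around KLF9 and KLF13, in the 4 comparisons, with genes under an edgeR adjusted p of 0.05 filled in red and list medians as vertical bars; KLF9 and KLF13 are left out. The corticosteroid list has a median of 0.74 at 12 wph against 5 wph, 0.46 between the strains and -0.002 in old against adult fish, and the SIN3 list has medians between -0.13 and 0.01.

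Many markers of immature neurons and of cell division were lower at 12 wph than at 5 wph, whereas few neuron markers changed. The share of all named genes that changed was 19.2% at 12 wph against 5 wph, 17.5% in old against adult fish and 14.8% between the strains. At 12 wph against 5 wph 0 of 21 neuron markers rose and 1 fell, and SNAP25, a synaptic protein, did not pass (0.17 ± 0.05, adjusted p = 0.0862, edgeR). The summed neuron markers were 6050 to 6340 CPM at 12 wph and 6100 to 6280 CPM at 5 wph. Of 24 markers of progenitors and immature neurons 11 fell, SOX11 among them (-0.74 ± 0.09, adjusted p = 0.000771, edgeR), and of 26 cell division genes 20 fell, with MKI67 at -1.23 ± 0.09 (adjusted p = 2.47e-05, edgeR). Their sums were 1890 to 1980 CPM at 12 wph against 2370 to 2670 CPM at 5 wph for the immature markers, and 314 to 425 CPM against 585 to 645 CPM for cell division. Between the strains, 1 of the 24 immature markers was lower and 0 higher in GRZ, a call lost without any 1 of GRZ replicates 1 to 3 and MZM-0410 replicates 14 and 15. The sums of these markers were 2290 to 2560 CPM in GRZ against 2370 to 2670 CPM in MZM-0410. SOX11 stood at -0.003 ± 0.07 (adjusted p = 0.988, edgeR), and of the cell division genes 9 were lower and 2 higher. The part of these shifts in the levels of KLF9 and KLF13 was not tested.

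In old against adult fish 17.5% of named genes changed, and 3.89% of all genes tested rose and 5.75% fell. Marker transcripts of several cell types were lower, and those of others were mixed or changed little. Of 11 astroglia markers 2 rose and 3 fell, and of 5 microglia markers 1 rose and 0 fell. That 1 was APOE copy Nfu_g_1_011018, which is on both lists. FABP7, which fell, is counted among the astroglia markers and again among the immature markers. Of 15 markers of endothelium and pericytes 0 rose and 1 fell. Of 21 neuron markers 13 fell and 1 rose, with sums of 5070 to 5510 CPM in old against 6050 to 6340 CPM in adult fish, and the 13 became 8 without old replicate 6. The myelin and oligodendrocyte list had 5 lower and 0 higher of 9, with a median log2 fold change of -0.64 and sums of 1640 to 2140 CPM in old against 2550 to 4240 CPM in adult fish. Of 24 immature markers 8 fell, and of 26 cell division genes 11 fell. The 11 became 5 without old replicate 6, and 7 without old replicate 10 or adult replicate 3 or 5. All 3 named markers of skeletal muscle fell, with sums of 4.04 to 7.19 CPM in old against 7.14 to 116 CPM in adult fish, but 0 passed without old replicate 6 and 1 without old replicate 10. Of 2 named red blood cell genes tested 1 fell, a call lost without any 1 of old replicates 6 and 10 and adult replicates 1, 4 and 5. The part of these shifts in the level of KLF13 was not tested.

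Pituitary tissue left on a brain is marked by growth hormone, GH1, and by the prohormone convertase PCSK1, which neurons also express. These 2 of the 12 symbols on the pituitary list had a name, and both were higher in each comparison with young MZM-0410 fish. The share of all named genes that changed was 19.2% at 12 wph, 42.3% at 39 wph and 14.8% in GRZ, each against young MZM-0410 fish. GH1 ranged from 9.37 to 63.1 CPM in GRZ, and from 0.213 to 18.9 CPM at 5 wph, 4.02 to 521 CPM at 12 wph and 0.464 to 336.3 CPM at 39 wph in MZM-0410. Its log2 fold change was 4.97 ± 1.20 at 12 wph against 5 wph (adjusted p = 0.0308), 4.29 ± 1.16 at 39 wph against 5 wph (adjusted p = 0.0183) and 2.47 ± 0.70 in GRZ against MZM-0410 (adjusted p = 0.0438, all edgeR), although its libraries overlapped in all 3. The first GH1 call was lost without any 1 of adult replicates 3 and 4 and young replicates 11, 12 and 14, and the second without young replicate 12 or 14. The strain call was lost without any 1 of GRZ replicates 1 to 3 and MZM-0410 replicates 11, 12 and 14, and also in DESeq2 (adjusted p = 0.192) and in the fit of all 16 libraries (adjusted p = 0.279).

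PCSK1 ranged from 219.3 to 244.6 CPM in GRZ, and from 159.5 to 169.2 CPM at 5 wph, 199.8 to 241.4 CPM at 12 wph and 172 to 200.8 CPM at 39 wph in MZM-0410. Its libraries did not overlap with those of young MZM-0410 fish in any of these groups, with log2 fold changes of 0.46 ± 0.07 at 12 wph (adjusted p = 0.00189), 0.19 ± 0.06 at 39 wph (adjusted p = 0.0305) and 0.50 ± 0.05 in GRZ (adjusted p = 0.000141, all edgeR). The call at 39 wph was lost without any 1 of old replicates 6, 8 and 10 or young replicates 12, 14 and 15. In old against adult fish PCSK1 was lower (-0.27 ± 0.07, adjusted p = 0.0454, edgeR) with overlapping libraries, where 17.5% of named genes changed. That call did not hold in every fit without 1 library. GH1 did not pass in old against adult fish (-0.68 ± 1.14, adjusted p = 0.754, edgeR).

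Of 15 markers of endothelium and pericytes, 6 rose at 12 wph against 5 wph and 6 were higher in GRZ, and 0 were lower in either. In these 2 comparisons 19.2% and 14.8% of all named genes changed, and 4.46% and 5.44% of all genes tested were higher. Summed levels of these markers were 817 to 887 CPM at 12 wph and 846 to 1020 CPM in GRZ against 674 to 763 CPM in young MZM-0410 fish. Leaving out 1 fish lowered the first 6 to as few as 3 (young replicate 14), and the second to 4 (GRZ replicate 2, or MZM-0410 replicate 11, 12 or 14). The part of pituitary and vascular tissue in the levels of KLF9 and KLF13 was not tested.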

How the data were processed

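The deposited file is 1 table that holds, for each gene and library, the raw counts of reads. Per the labels and the study's methods, stranded libraries depleted of ribosomal RNA were demultiplexed with bcl2fastq 1.8.4, aligned to the Nfu_20150522 genome with TopHat2 2.1.0 and counted with featureCounts 1.5.0 on genebuild_v1.150922 without regard to strand, so that antisense reads cannot be told apart. In the RefSeq annotation of another assembly (NfurGRZ-RIMD1) 0 genes overlap klf9 or klf13. Gene names, held for 5369 genes (20.1%), came from identifier and orthologue pairs in the study's supplementary tables and favour changed genes.

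Each comparison used its 8 libraries, filterByExpr, TMM scaling and the quasi-likelihood test of edgeR 4.0.16 (R 4.3.3), with Benjamini-Hochberg adjustment and a threshold of 0.05. DESeq2 1.42.0, which the study used, other scalings, no filter, 1 fit of 16 libraries and leaving out each library were alternatives. CPM levels used TMM over 16 libraries. The procedure was tested on simulated data. Named were KLF9, KLF13, other KLF and SP genes, for each of the 2 the 8 genes most and the 4 least like it by correlation of log2 CPM (prior count 2), and of each list up to 4 genes of smallest p besides fixed receptor, partner and marker genes; GH1 falls under the list rule. The genes and lists were chosen with earlier results of these data known. Figures were drawn with matplotlib 3.10.9.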

Additional observations from a re-analysis of the deposited data

Results flagged for a closer look

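KLF9 in GRZ replicate 4 stood at 67.75 CPM, apart from the other 3 GRZ fish, which lay between 44.0 and 47.8 CPM. The gap was 0.84 of the range of the group. KLF11 copy Nfu_g_1_018675 in old replicate 10 stood at 11.43 CPM, below the other 3 old fish at 23.1 to 24.5 CPM, with a gap of 0.897 of the range. Over 7 family genes, 28 groups of 4 were examined in this way and 2 held such a fish, and chance alone would mark about 1 group in 20.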

How the results depend on the processing

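No paired analysis was possible because the groups compared share no replicate numbers. Without 1 library at a time, the log2 fold change of KLF9 ranged from 2.687 to 3.128 at 12 against 5 wph, -0.019 to 0.411 at 39 against 12 wph, 2.88 to 3.404 at 39 against 5 wph and 2.568 to 3.004 between the strains, and that of KLF13 from 1.43 to 1.575, -0.755 to -0.414, 0.718 to 1.063 and 0.623 to 0.866 in the same comparisons. The number of other KLF and SP genes called ranged from 2 to 3, 0 to 1, 3 to 3 and 2 to 2. For 39 against 12 wph it was 1 with DESeq2 size factors and with DESeq2, against 0. The number of all genes changed ranged from 650 to 972 at 12 against 5 wph (650 without 5 wph replicate 14 and 752 without replicate 11, against 1146), 608 to 1620 at 39 against 12 wph (608 without 39 wph replicate 6, against 1734), 3319 to 4305 at 39 against 5 wph, and 1055 to 2510 between the strains (1055 without MZM-0410 replicate 12, against 1823). The difference of KLF9 between old and adult fish changed sign without old replicate 10 (-0.019, against 0.28). Of 4940 repeats over 380 results on single genes, called or not in the main fit, 230 lost and 60 gained the threshold. Only results called in the main fit could lose it. Depth limits KLF9 most in young MZM-0410 fish, where 32 to 51 reads were counted.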
